A study of Danio rerio with 170 samples.

Results

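The MiT/TFE family is a group of basic helix-loop-helix leucine zipper transcription factors, and 5 of the 21854 zebrafish genes in the expression table were examined here: tfe3a, tfe3b, tfeb, tfec and mitfa. They were chosen by name and matched by NCBI GeneID, and all 5 were present. tfe3a heads the list because earlier results of these data had placed it among central genes of a co-expression network and among the genes that responded to flame retardants. Its own values are therefore given as a description without a test. The paralogs carry the tests. A sixth family gene of the table, mitfb, is given only where it stands beside tfe3a.

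MiT/TFE proteins bind E-box DNA as homodimers or as heterodimers with each other. In mammals, TFEB and TFE3 are held in the cytoplasm when the kinase mTORC1 phosphorylates them at the lysosome, through Rag GTPases and folliculin, and they enter the nucleus on starvation or lysosomal stress, helped by calcineurin and the lysosomal calcium channel MCOLN1. There they switch on lysosomal and autophagy genes. This control acts on the protein, which was not measured here. In zebrafish, mitfa is required to form melanophores, the black pigment cells, and tfec acts in iridophores, the silvery pigment cells, and in blood development. The a and b copies of tfe3 and mitf come from the genome duplication of teleost fish.

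RNA was from whole wildtype embryos at 48 h post fertilization (hpf), 144 libraries of 5 studies. Of 33 treatments, 10 were flame retardant chemicals (FRCs), 10 were polycyclic aromatic hydrocarbons or TCDD classed by the study as activators of the aryl hydrocarbon receptor (AHR2 Activators), and 13 were other compounds. The FRCs were TiBP (Triisobutyl phosphate, 158 µM), IPP (Triisopropylated phenyl phosphate, 19.8 µM), TDBPP (Tris(2,3-dibromopropyl) phosphate, 3 µM), TPP (Triphenyl phosphate, 8 µM), TCEP and TCPP (chlorinated alkyl phosphates, both 85 µM), TBBPA (tetrabromobisphenol A) and its dibromopropyl ether TBBPA-DBPE (both 4 µM), BDE-47 (a tetrabrominated diphenyl ether, 85 µM) and TBPH (a tetrabromophthalate, 72 µM). Their 39 libraries were set against the 4 libraries of DMSO_FRC (0.64% DMSO). The AHR2 Activators were BbF (Benzo[b]fluoranthene, 50 µM), BjF (14.9 µM), BkF (1.9 µM), DBahP (Dibenzo[a,h]pyrene, 10 µM), DBaiP (5 µM), Retene (12.2 µM), Benzo(a)pyrene at 1 µM (B[a]P_1) and 10 µM (B[a]P_10), 7,12-B[a]AQ (10 µM) and TCDD (1 ng/mL). The other compounds were 1,5-DMN, 2-MN, 9-MA, Acenaphthene, Anthracene, Carbazole, Fluoranthene and Phenanthrene (all 50 µM), BEZO and DBalP (10 µM), 4h-CPdefP (16.2 µM), 3-NF (1.9 µM) and 9,10-PQ (1.2 µM). DMSO_A (3 libraries) served 9 of these treatments and DMSO_B (4) served 7, and DMSO_PE50_AK (3) and DMSO_PE50_BG (3) served 3 each, all at 1% DMSO. DMSO_TCDD (4 libraries, 0.1% DMSO) served TCDD. Treatments with the same DMSO group share its libraries. A sample of Benzo(a)pyrene, 9,10-PQ or DBalP was a pool of 20 embryos, and nothing in the labels says that the replicates came from separate spawns, so p-values measure the spread between these libraries.

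Values are read counts divided by the size factor of the library (normalized read counts), averaged where a library was sequenced in several entries. Libraries held 6795594 to 28566824 reads over the table (median 18023617). In whole embryos, fewer cells of a type and less RNA per cell cannot be told apart. Levels were not compared between genes, since no transcript lengths were used.

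tfe3a was low in the DMSO_FRC embryos and higher in the embryos of every FRC. In DMSO_FRC its normalized read counts were 12.2, 40.7, 25.4 and 16.5, from 16 to 61 reads per library. The 39 FRC-exposed libraries ranged from 49.6 to 1092 with a median of 221, and all 39 were above all 4 control libraries. No FRC group therefore overlapped its control, where 9.44% of gene-by-FRC comparisons over the whole table did not overlap with the FRC group higher. That count describes the pattern for which the gene was chosen.

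The TiBP libraries held 678, 776, 749 and 893 normalized tfe3a reads, by median the highest of the FRC groups. The IPP libraries held 1092, 249, 315 and 763, a spread wide enough to enclose the whole TiBP group. In TDBPP the values were 233, 554, 311 and 327. On the log2(value + 1) scale these groups stood 5.10, 4.49 and 3.92 above DMSO_FRC (SE 0.50 each, n = 4 against 4). The SE is about as large as the distance between neighbouring treatments in this order, so TiBP and IPP, or IPP and TDBPP, did not separate beyond their spread.

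The other FRCs stood between 2.11 and 3.33 above the controls. TBBPA-DBPE (208, 407, 154 and 200 normalized reads) was at 3.33, and TCPP (221, 144 and 232) at 3.12 with an SE of 0.54 from 3 libraries. TCEP also came to 3.12, but from 356, 278 and 288 with library 2 at only 49.9. BDE-47 was more even, with 215, 167, 170 and 202 and a log2 fold change of 3.07. TPP held 62.5, 337, 218 and 254 (3.05). The smallest values were those of TBPH (153, 84.0, 90.3 and 171, 2.41) and TBBPA (193, 136, 49.6 and 64.5, 2.11). The mean of the 10 FRCs against DMSO_FRC was 3.37 (SE 0.37).

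**Figure D1:**
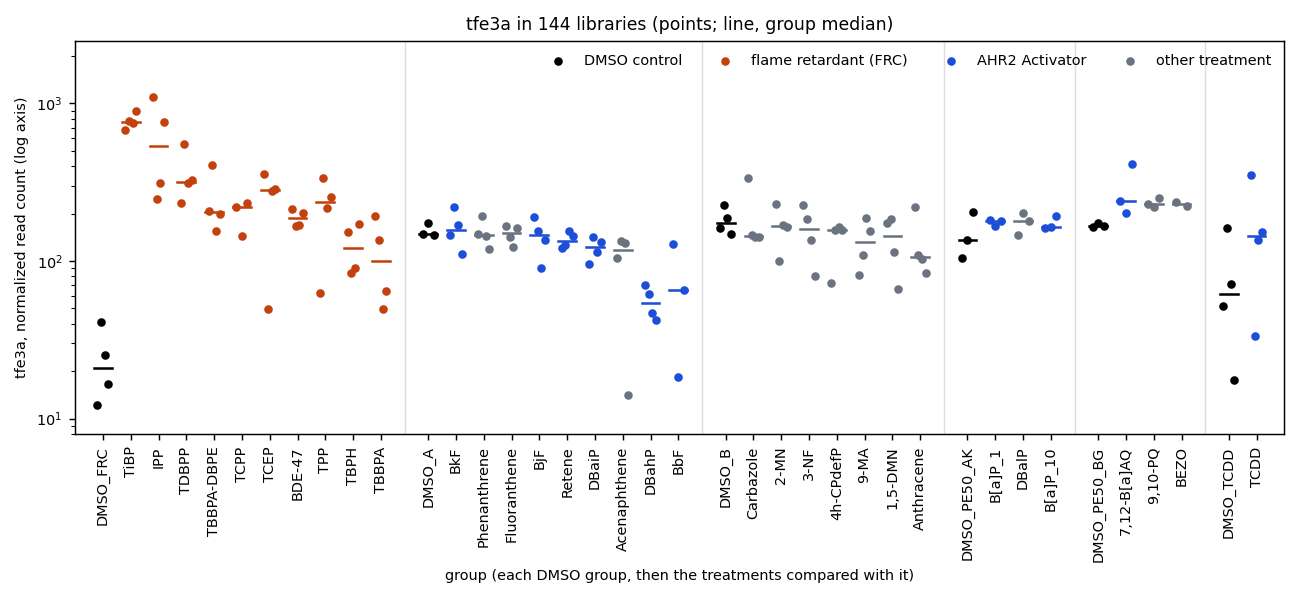
Normalized read count of tfe3a on a log axis in each of 144 libraries (points) by group, with the group median as a line; each DMSO group is followed by the treatments compared with it. The 4 DMSO_FRC libraries sit between 12.2 and 40.7, under all 39 FRC libraries, and TiBP, IPP and TDBPP reach highest.

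The size of these log2 fold changes depends on the level in the 4 DMSO_FRC libraries, which was itself low among the DMSO libraries of the series. The 17 DMSO libraries of the other studies held 17.6 to 225 normalized tfe3a reads, with a median of 162. DMSO_A held 149, 173 and 146, DMSO_B 162, 225, 187 and 148, DMSO_PE50_AK 105, 136 and 206, and DMSO_PE50_BG 166, 175 and 167. DMSO_TCDD spread from 17.6 to 162, with 51.7 and 71.0 between. Of the 4 DMSO_FRC libraries, 2 were under all 17 and none was above the other studies' median. All 12 TiBP, IPP and TDBPP libraries were above all 17, as were 3 of 4 for TCEP, 2 of 4 for TPP, 1 of 4 for TBBPA-DBPE and 1 of 3 for TCPP. No library of BDE-47, TBBPA or TBPH was above them. The studies also differed in read length and DMSO content and, for the FRC study, in an added DNase step, so study and control level cannot be told apart.

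The FRC study was sequenced in 3 lanes, and each lane held control and exposed libraries. In lane 1, 2 controls at 12.2 and 16.5 faced 13 exposed libraries at 62.5 to 1092, a log2 difference of 4.17. In lane 2 the difference was 2.40, with 1 control at 40.7 and 14 exposed libraries at 49.9 to 776. In lane 3 it was 3.00, with 1 control at 25.4 and 12 exposed libraries at 49.6 to 749. As every exposed library was above every control, the direction in each lane was fixed in advance. The size of the difference followed the level of the few controls.

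Outside the FRC study, tfe3a stood closer to its controls, above and below them. Over the 10 AHR2 Activators the median log2 fold change was -0.08, from -1.51 for BbF to 1.12 for TCDD, and 5 were above 0 and 5 below. Over the 13 other compounds the median was -0.16, from -1.10 to 0.47. The largest negative differences were all against DMSO_A. The 4 DBahP libraries held 70.7, 61.5, 47.0 and 42.3 tfe3a reads, the 3 BbF libraries 128, 18.3 and 65.2, and the Acenaphthene libraries 105, 134, 130 and 14.1. None of these overlapped the 146 to 173 of DMSO_A, and their log2 differences were -1.50 (SE 0.45), -1.51 (SE 0.48) and -1.10 (SE 0.45). Over all genes, 8.77% were lower without overlap in DBahP, 10.3% in BbF and 6.82% in Acenaphthene. DBahP was low in every library, while BbF and Acenaphthene each rested largely on a single library. DBaiP was also under DMSO_A throughout, at 96.2 to 141 (-0.38), as were 5.23% of all genes.

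Against DMSO_PE50_BG, tfe3a was higher without overlap in 7,12-B[a]AQ (240, 201 and 412 normalized reads, 0.68, SE 0.17), in 9,10-PQ (230, 221 and 251, 0.47) and in BEZO (236 and 223, 0.44). These 3 treatments share the 3 control libraries at 166 to 175. Over all genes, 13.9% were higher without overlap in 7,12-B[a]AQ, 13% in 9,10-PQ and 20.1% in BEZO. In all 33 treatments it was 7.92% of gene-by-treatment comparisons. With TCDD the tfe3a values were 353, 33.5, 136 and 152 and overlapped the control, so that the log2 difference of 1.12 carried an SE of 0.69. In the 2 lanes of the TCDD study it was 0.25 and 1.99.

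**Figure D2:**
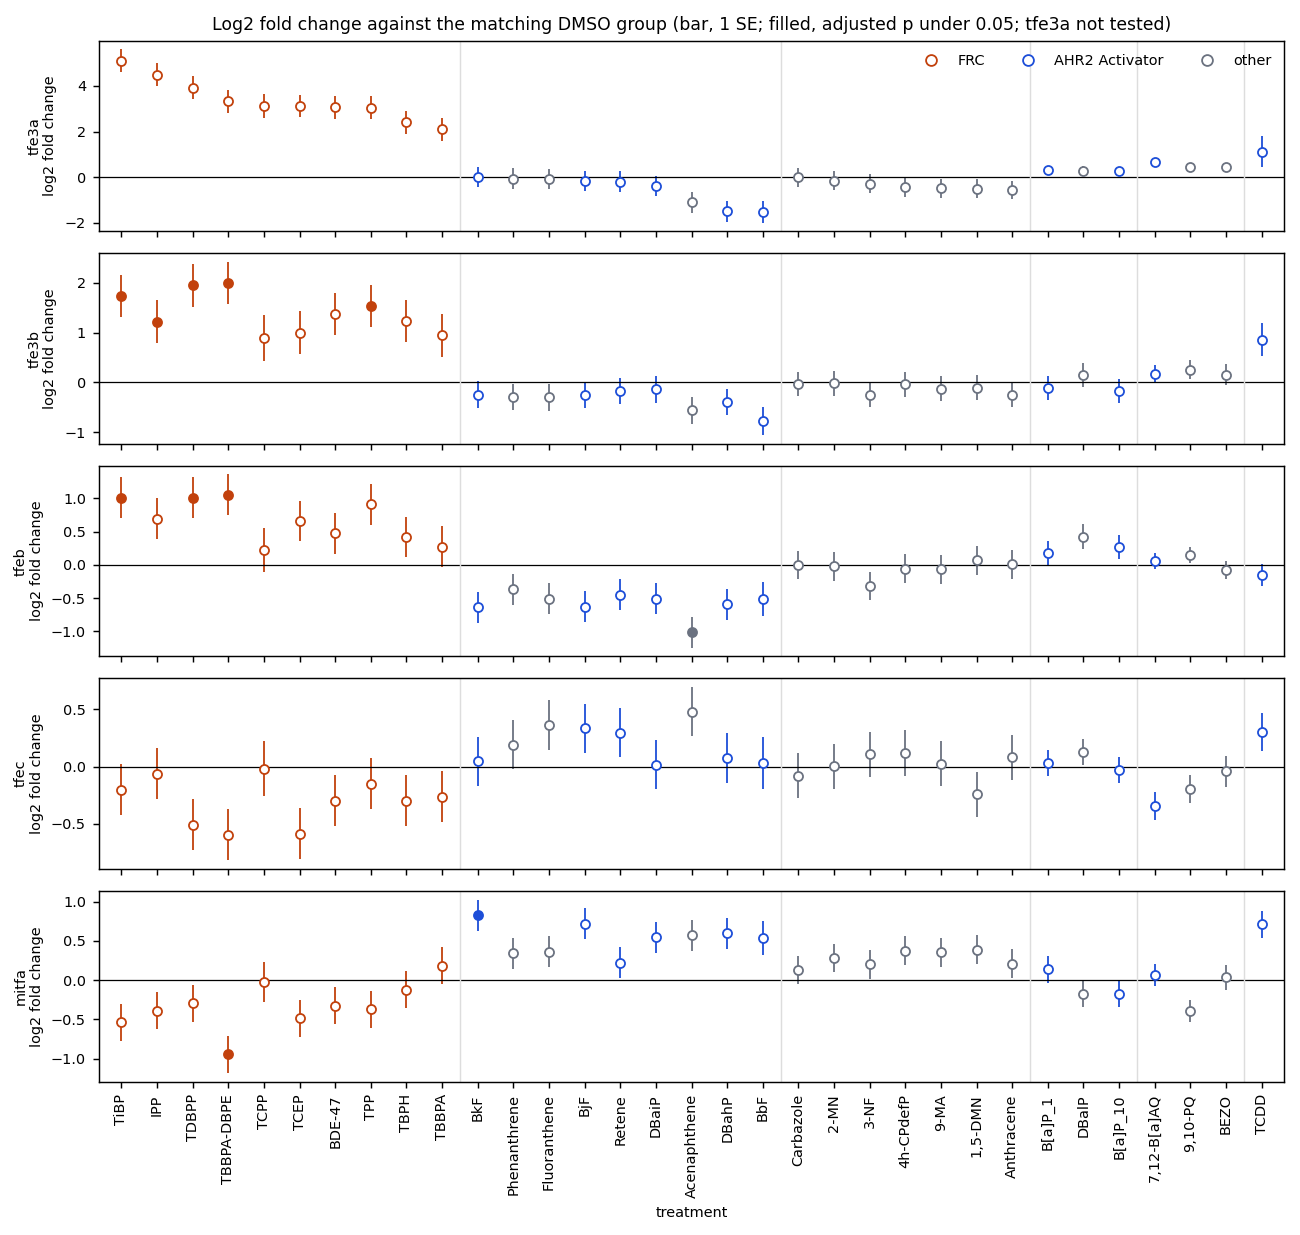
Log2 fold change of each of the 5 genes (panels, each with its own axis) in 33 treatments against the matching DMSO group, with 1 SE as the bar; filled points passed an adjusted p of 0.05, and tfe3a was not tested. tfe3a, tfe3b and tfeb lie above 0 for all 10 FRCs and tfec lies below 0 for all 10.

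tfe3b, the duplicate of tfe3a, was also higher in FRC-exposed embryos, by less. Its normalized read counts in DMSO_FRC were 21.4, 48.1, 43.7 and 28.4, and 36 of the 39 exposed libraries were above all 4 and 1 was below. The 39 libraries share these 4 controls. Library counts of this kind, here and below, were not set beside a share over all genes. The mean of the 10 FRCs stood 1.39 (SE 0.32) above DMSO_FRC, adjusted p = 0.0033 in limma over all 21854 genes (11.3% of genes were called in this contrast, 6.86% higher and 4.47% lower). Without DMSO_FRC library 1, the lowest of the controls, the difference was 1.18 and the adjusted p 0.053.

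By treatment, tfe3b was called higher in 5 of the 10 FRCs, where 5.25% of all gene-by-FRC tests were called higher. TBBPA-DBPE held 166, 189, 134 and 84.2 tfe3b reads, a log2 fold change of 1.99 (SE 0.43, adjusted p = 0.0034 in limma). TDBPP held 154, 149, 160 and 85.7 (1.95, adjusted p = 0.00068 in limma), and TiBP 99.3, 99.2, 136 and 129 (1.74, adjusted p = 0.0034 in limma). These 3 groups lay wholly above the controls, as did 12.9%, 17.3% and 15% of all genes, and their calls held under all 20 alternatives. TPP (1.53, adjusted p = 0.037 in limma) and IPP (1.22, adjusted p = 0.048 in limma) did not overlap the controls either, but lost the call under 7 and 11 of the 20 alternatives. Over all genes, 5.02% were higher without overlap in TPP and 11.3% in IPP. The other 5 FRCs had log2 fold changes of 0.90 to 1.37 with adjusted p from 0.076 to 0.62 in limma. A single library can be far from its group: TCEP library 2, low for tfe3a, held 15.3 tfe3b reads beside 121, 125 and 91.2.

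TiBP, which had the highest tfe3a level among FRCs, had a smaller tfe3b fold change than TBBPA-DBPE and TDBPP, and IPP, next to TiBP for tfe3a, had a smaller one than 6 other FRCs. Outside the FRC study tfe3b was called in none of 23 treatments by limma, with 3 at an unadjusted p under 0.05. BbF had 51.6, 34.3 and 51.4 normalized reads, all under the 71.0 to 83.9 of DMSO_A (-0.78, adjusted p = 0.30 in limma). DBahP had 49.9 to 69.1 (-0.39, adjusted p = 0.47 in limma). Over all genes, 10.3% were lower without overlap in BbF and 8.77% in DBahP. Both treatments were also low for tfe3a. With TCDD tfe3b was at 118, 70.3, 85.7 and 158 against 57.8, 112, 38.8 and 39.8, a log2 fold change of 0.86 (adjusted p = 0.22 in limma).

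tfeb, the family member best known in mammals as a regulator of lysosome formation, was higher in the FRC libraries by a smaller margin. DMSO_FRC held 49.0, 88.8, 73.2 and 94.5 normalized tfeb reads, and 31 of 39 exposed libraries were above all 4. The mean of the 10 FRCs was 0.67 above DMSO_FRC (SE 0.23, adjusted p = 0.047 in limma). That call rested on single libraries: without DMSO_FRC library 1 the difference was 0.48 (adjusted p 0.33), without library 2 of the control 0.76 (adjusted p 0.059), without library 3 0.67 (0.12) and without library 4 0.79 (0.050). Leaving out library 1, 3 or 4 of every treatment gave 0.61 to 0.69 with adjusted p from 0.056 to 0.14. The direction was positive in each case.

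tfeb was called higher in 3 FRCs, the same 3 that led for tfe3b, where 5.25% of all gene-by-FRC tests were called higher. Of all genes, 6.72% were called higher in TBBPA-DBPE, 13.7% in TDBPP and 10.9% in TiBP. TBBPA-DBPE held 157, 164, 124 and 180 tfeb reads (1.05, SE 0.31, adjusted p = 0.022 in limma) and TDBPP 129, 158, 196 and 127 (1.01, adjusted p = 0.013 in limma), both wholly above the controls. Of all genes, 12.9% and 17.3% lay wholly above these controls. TiBP held 180, 86.4, 162 and 201 and overlapped them (1.01, adjusted p = 0.017 in limma). Each of these calls was lost without DMSO_FRC library 1, where the log2 fold changes were 0.86, 0.81 and 0.81 (adjusted p 0.13, 0.070 and 0.092). Without library 4 of the exposed groups TBBPA-DBPE and TiBP lost the call (adjusted p 0.12 for both), and without library 3 TDBPP and TiBP did (0.072 and 0.060). By lane the mean FRC difference of tfeb was 1.01, 0.23 and 0.71 (tfe3b 1.83, 0.70 and 1.27).

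In the study with DMSO_A and DMSO_B as controls tfeb was lower than DMSO_A in all 9 treatments that used this control. DMSO_A held 86.8, 103 and 96.3 tfeb reads, and in 8 of the 9 treatments no library reached 86.8, where 7.67% of gene-by-treatment comparisons in the table did not overlap with the treated group lower. Acenaphthene was called lower, with 58.1, 43.8, 53.6 and 34.6 reads and a log2 fold change of -1.01 (SE 0.23, adjusted p = 0.038 in limma). The call was lost in 6 of 20 alternatives: without library 4 of Acenaphthene (-0.87, adjusted p 0.45), without control library 2, 3 or 4 (adjusted p 0.059, 0.17 and 0.13), with voom (adjusted p 0.059) and with 1 fit over all samples (adjusted p 0.16). A library number absent from DMSO_A changes only the other comparisons of that study and the shared estimate of the spread. The other 8 treatments had log2 fold changes of -0.37 to -0.63 and none was called. All 9 share 3 control libraries. DMSO_B, prepared at the same DMSO content, held 62.6, 83.7, 60.4 and 91.3 tfeb reads, 0.37 below DMSO_A on the log2 scale (95% interval -0.83 to 0.09, adjusted p = 0.87 in limma, with 0.0595% of all genes called between these controls), and the 7 treatments set against DMSO_B had log2 fold changes from -0.32 to 0.07.

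**Figure D3:**
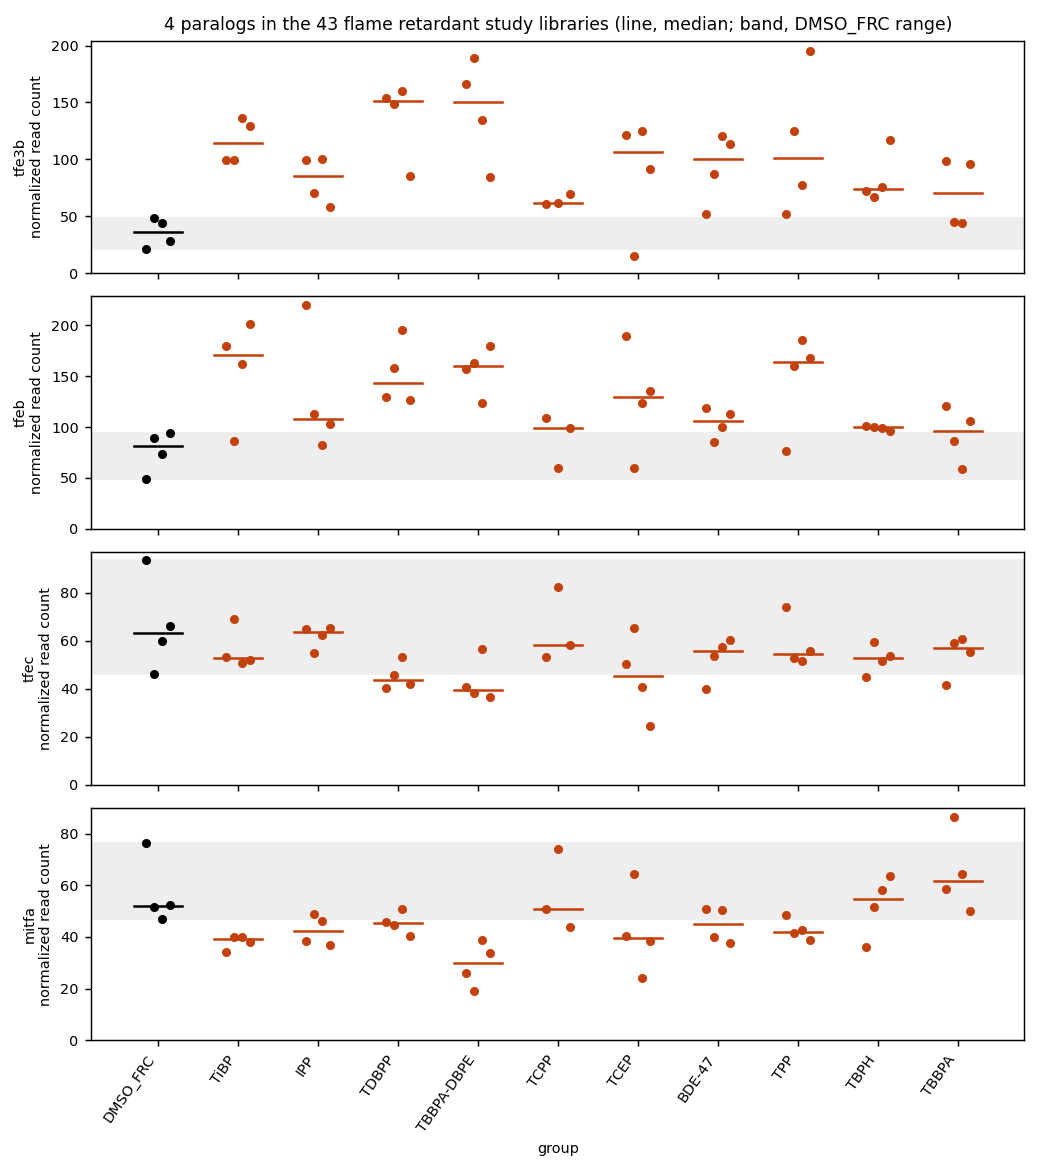
Normalized read counts of tfe3b, tfeb, tfec and mitfa in the 43 libraries of the FRC study, with the group median as a line and the range of the 4 DMSO_FRC libraries as a grey band. For tfe3b, 36 of 39 exposed libraries lie above the band, for tfeb 31, and for mitfa 24 lie below it. These counts share the 4 controls and have no share over all genes beside them.

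tfec and mitfa, the members tied to pigment cells in zebrafish, had log2 fold changes mostly below 0 with the FRCs, but neither passed in the mean of the 10 FRCs and only mitfa in TBBPA-DBPE was called in a single FRC. tfec in DMSO_FRC held 93.4, 46.1, 60.0 and 66.1 normalized reads. Its log2 fold change was below 0 in all 10 FRCs, from -0.59 in TBBPA-DBPE to -0.02 in TCPP. Of the 39 exposed libraries, 11 were below all 4 controls, a count with no share over all genes beside it. No FRC group was clear of the controls, and the mean of the 10 FRCs was -0.30 (95% interval -0.63 to 0.04, adjusted p = 0.26 in limma). tfec was called in 0 of 33 treatments by limma, with 5 at an unadjusted p under 0.05. Leaving out DMSO_FRC library 1, at 93.4, moved the mean to the smallest of its leave-one-out values, -0.12.

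Across studies tfec and mitfa had their highest levels in the libraries with 50-base reads. In the 6 DMSO libraries of DMSO_PE50_AK and DMSO_PE50_BG tfec ranged from 126 to 162 and mitfa from 93.2 to 165. In DMSO_A and DMSO_B tfec ranged from 39.5 to 63.2 and mitfa from 37.5 to 59.8, and in DMSO_TCDD mitfa was at 29.6 to 34.6. tfe3b did not share this shift, at 38.6 to 70.7 in the 6 DMSO libraries with 50-base reads and 58.9 to 88.2 in DMSO_A and DMSO_B. tfeb was higher in part, at 79.3 to 134 in these 6 libraries and 60.4 to 103 in DMSO_A and DMSO_B. Read length and study cannot be told apart here.

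Of the 10 FRCs, mitfa was called lower in TBBPA-DBPE. DMSO_FRC held 76.5, 51.4, 46.8 and 52.3 mitfa reads and TBBPA-DBPE 25.9, 19.0, 38.9 and 33.9, with no overlap and a log2 fold change of -0.95 (SE 0.24, adjusted p = 0.0092 in limma). Without DMSO_FRC library 1 it was -0.80 (adjusted p 0.068), and without library 1 of the exposed group -0.90 (adjusted p 0.050). TiBP was also clear of the controls, at 34.2, 40.0, 40.1 and 38.2 (-0.54, adjusted p = 0.11 in limma). Over all genes, 11.6% were lower without overlap in TBBPA-DBPE and 12.4% in TiBP. The mean of the 10 FRCs was -0.33 (95% interval -0.69 to 0.02, adjusted p = 0.23 in limma), and 24 of 39 exposed libraries were below all 4 controls while 1 was above.

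Outside the FRC study mitfa lay mostly above its controls. Its mean on the log2 scale was above the control in 9 of 10 AHR2 Activators (median log2 fold change 0.54). It was also above in all 9 treatments that used DMSO_A (46.3, 37.5 and 56.8 normalized mitfa reads). BbF, BjF, BkF, DBahP, DBaiP and Retene are among both, so these counts share the DMSO_A libraries. B[a]P_1, B[a]P_10 and 7,12-B[a]AQ, with other controls, had log2 fold changes of 0.14, -0.18 and 0.06. DMSO_B minus DMSO_A was 0.18 for mitfa (95% interval -0.21 to 0.58, adjusted p = 0.94 in limma). BkF was called, with 99.9, 87.9, 55.8 and 96.1 reads and a log2 fold change of 0.83 (SE 0.20, adjusted p = 0.021 in limma). The call was lost in 6 of 20 alternatives, 5 of which leave out a library (adjusted p 0.091 to 0.35) and 1 of which is voom (adjusted p 0.054). BjF (64.1 to 85.6), DBahP (66.0 to 82.1), DBaiP (58.2 to 80.2), BbF (64.6 to 72.5) and Acenaphthene (61.7 to 84.0) were clear of DMSO_A with log2 fold changes of 0.54 to 0.72, where 7.92% of gene-by-treatment comparisons in the table did not overlap with the treated group higher, and none of these was called. TCDD gave 45.7, 47.5, 61.6 and 55.9 mitfa reads against 29.6, 31.3, 34.6 and 31.0, with no overlap, a log2 fold change of 0.71 and an adjusted p of 0.061 in limma. Since the groups did not overlap, the sign was fixed in both lanes of that study, where the differences were 0.60 and 0.82. tfec was also clear of its control with TCDD, at 63.7 to 77.9 against 43.9 to 62.6 (0.30, adjusted p = 0.38 in limma). With TCDD 4.18% of all genes were higher without overlap.

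Over the 4 paralogs and 33 treatments, 11 of 132 tests were called by limma, where 4.87% of all gene-by-treatment tests were. Of the 11, 9 were in FRCs, where 9.47% of all tests were called, and 8 of these 9 were higher values of tfe3b or tfeb. Without library 1 of every control group 5 of 132 were called, without library 4 of every treatment 5, and without library 3 of every treatment 7.

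Related chemicals at the same dose were compared in 7 pairs, with p-values adjusted over all genes and pairs together. The pair of TBBPA and TBBPA-DBPE, both at 4 µM, differed in mitfa: 58.7, 86.5, 64.3 and 49.9 normalized reads with TBBPA, all above the 19.0 to 38.9 with TBBPA-DBPE. The log2 difference of TBBPA-DBPE minus TBBPA was -1.13 (SE 0.24, 95% interval -1.61 to -0.65, adjusted p = 0.0018 in limma). This was the only one of 28 paralog tests that was called, where 6.9% of all gene-by-pair tests were (17% for this pair). Without library 2 of both groups it was -0.80 (adjusted p 0.061 in limma). TBBPA library 2, the highest for mitfa, had a size factor of 0.508 at 10957931 reads. The other TBBPA libraries had size factors of 1.04 to 1.16 at 13249779 to 15003902 reads. The etherified compound also gave higher point estimates for tfe3b (1.05, 95% interval 0.19 to 1.91, adjusted p = 0.15 in limma) and tfeb (0.78, interval 0.16 to 1.39, adjusted p = 0.13 in limma), neither called. The tfe3a difference was 1.23 (SE 0.50).

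TCEP and TCPP, both chlorinated alkyl phosphates at 85 µM, differ in their alkyl groups. TCPP minus TCEP was 0.00 for tfe3a (SE 0.54), -0.10 for tfe3b (95% interval -1.03 to 0.84), -0.43 for tfeb (-1.10 to 0.23), 0.57 for tfec (0.08 to 1.06, adjusted p = 0.17 in limma) and 0.46 for mitfa (-0.05 to 0.98). These intervals leave room for differences of about the size of the FRC responses of tfeb, tfec and mitfa. Of the pairs outside the FRCs, 9-MA and Anthracene differ by a methyl group at 50 µM. Their paralog differences were -0.07 to 0.14, with intervals that stayed between -0.50 and 0.62. Anthracene minus Phenanthrene, the linear and the angular arrangement of the same rings at 50 µM, gave -0.04 to 0.17 with intervals between -0.53 and 0.57. For 2-MN minus 1,5-DMN at 50 µM, DBalP minus B[a]P_10 at 10 µM and 7,12-B[a]AQ minus BEZO at 10 µM the paralog differences lay between -0.31 and 0.32, and the interval farthest from 0 on each side reached -0.59 and 0.84.

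The 5 genes differed in how much they varied among libraries of 1 group. The within-group SD on the log2 scale was 0.70 for tfe3a, larger than for 87.9% of all genes, then 0.47 for tfe3b, 0.34 for tfeb and 0.26 for both tfec and mitfa. For tfe3a it was 1.35 in the TCDD study, 0.77 in the FRC study, 0.63 in the study of DMSO_A and DMSO_B and 0.28 and 0.29 in the studies with 50-base reads.

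After centring each group on its own mean, tfe3a deviated in the same direction as tfe3b (Pearson's r = 0.62 over 144 libraries), tfeb (0.59) and mitfb (0.67), and opposite to tfec (-0.34) and mitfa (-0.28), while tfec and mitfa went together (0.31). In the 43 FRC libraries alone these were 0.63, 0.70, 0.51, -0.53, -0.50 and 0.48, and in the 70 libraries of the study of DMSO_A and DMSO_B 0.68, 0.59, 0.69, -0.32, -0.21 and 0.20. In the smaller studies the signs were not all kept: in DMSO_PE50_AK and its treatments tfe3a and tfe3b had r = -0.39 over 12 libraries. These are descriptions over libraries, and the points of a study share its preparation, lanes and normalization.

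The genes whose centred profile was most like that of tfe3a over the 144 libraries were ranbp3a (r = 0.92), LOC100004582 (0.91), hmbox1b, a homeobox gene (0.90), ago1, an Argonaute protein of small-RNA silencing (0.90), and gna11b, a G protein alpha subunit (0.89). The most opposed were hnrnpabb, an RNA-binding protein (-0.74), ppp2r1bb, a scaffold subunit of protein phosphatase 2A (-0.73), and ilf2 (-0.73). An absolute r over 0.5 with tfe3a was found for 12.8% of all genes, against 8.19% with tfe3b, 6.74% with tfeb, 0.169% with tfec and 0.0915% with mitfa. For tfe3b the most alike were hipk3b (0.72), thoc2 (0.71), mex3a (0.70), gnal (0.70) and hmga2 (0.70), and for tfeb mef2aa (0.78), a muscle and heart transcription factor, tom1l2a (0.76), fer (0.75), trdn (0.74), a protein of the calcium release complex of muscle, and sh3pxd2aa (0.74). For tfec and mitfa the highest values were lower, at 0.52 to 0.56: meaf6, sucla2, degs1, dnajc1 and hlx1 for tfec, and znf511, drc4, fam50a, rab5if and brd7 for mitfa. None of the other members was among the 5 genes most like tfe3a.

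The study named tfe3a and other genes in Module 2, a module it associated with FRCs, and 6 of these others were followed here. They are not all the genes it named in such modules. Because they had been picked on these samples, their direction is not independent evidence. In the mean of the 10 FRCs all 6 were called higher: osbpl2a by 2.33, srgap3 by 2.30, zgc:158689 by 1.97, kremen1 by 1.63, cacna1da by 1.61 and mxd1, a MAX-binding partner, by 1.30 (adjusted p from 4.1e-06 to 0.00053 in limma). Their centred correlation with tfe3a over 144 libraries ran from 0.75 for kremen1 to 0.89 for mxd1. Libraries low for tfe3a were low for them too. Acenaphthene library 4, at 14.1 for tfe3a, held 116 srgap3 and 173 mxd1 reads, 4.9 mitfb reads, and the lowest tfe3b (26.8) and tfeb (34.6) of its group, with 84.0 mitfa and 89.0 tfec, the highest of its group. Its depth was 21247856 reads. BbF library 2, at 18.3 for tfe3a, held 110 srgap3, 311 mxd1 and 34.3 tfe3b reads at 21678920 reads of depth.

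tfe3a separated from these partners in 3 treatments. In all 12 libraries of TiBP, IPP and TDBPP the ratio of tfe3a to srgap3 was 0.68 to 1.95, with a median of 0.96. In all 132 other libraries it was 0.12 to 0.64, with a median of 0.30. The median was 0.42 in the other 31 libraries of the FRC study, and the DMSO_FRC libraries lay at 0.14 to 0.36. TBBPA library 2 departed the other way, with 136 tfe3a reads beside 1098 of srgap3 and 810 of kremen1. The separation was complete for srgap3 and nearly so for cacna1da (131 of the 132 other libraries under the lowest of the 12), mxd1 (130) and zgc:158689 (129), with kremen1 and osbpl2a at 122 each. Of the genes most like tfe3a it was 131 for gna11b, 130 for LOC100004582, 126 for hmbox1b, 123 for ago1 and 105 for ranbp3a. Against its own paralogs it was 32 for tfe3b and 52 for tfeb. These 3 treatments were singled out after their values had been seen, and they were the 3 with the largest tfe3a fold changes, so the numbers are a description.

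**Figure D4:**
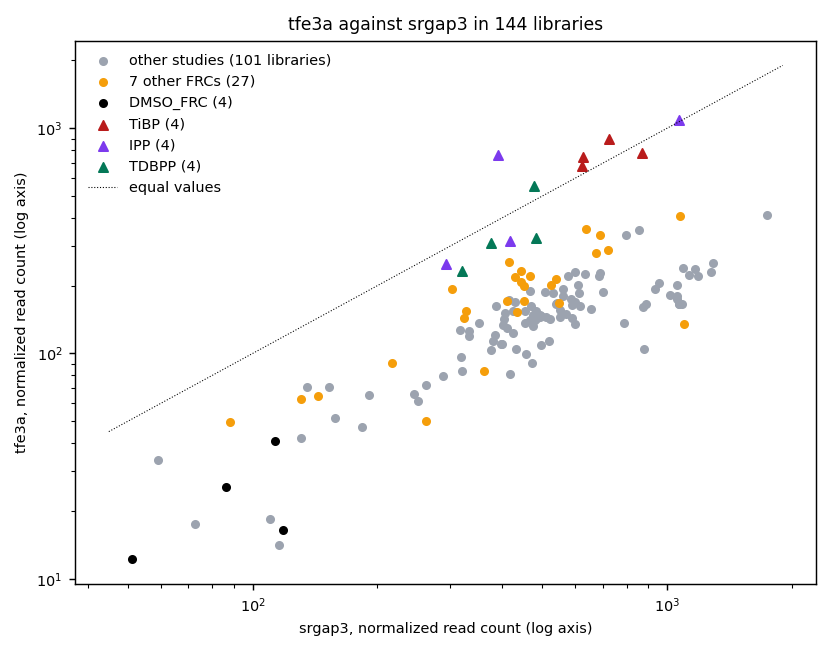
Normalized read counts of tfe3a and srgap3 on log axes in 144 libraries, with triangles for the 12 libraries of TiBP, IPP and TDBPP and a dotted line where both values are equal. The 12 triangles lie at ratios of 0.68 to 1.95 and the other 132 libraries at 0.12 to 0.64.

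Few genes known in mammals to control or to respond to MiT/TFE factors were called in the mean of the 10 FRCs. Of 26 regulators measured (mTORC1, Rag GTPases, Ragulator, folliculin, calcineurin and MCOLN1 genes), 1 was called higher and 1 lower in the mean of the 10 FRCs: mcoln1b, a lysosomal calcium channel, by 0.84 (SE 0.24, adjusted p = 0.021 in limma), and ppp3r1b, a calcineurin regulatory subunit, which fell by 0.30. Of 42 genes for lysosomal enzymes and membrane proteins, ctsd, cathepsin D, was called higher (0.45, adjusted p = 0.016 in limma) and none lower, with a median of 0.01 beside 0.01 over all genes. Of 19 V-ATPase subunits, which acidify the lysosome, none was higher and 2 were lower: atp6v0cb (-0.67, adjusted p = 0.0096 in limma) and atp6ap1a (-0.26). Of 39 autophagy genes, 2 were higher, ulk1b (0.53) and atg9b (0.42), and ulk2 was lower (-0.37). Their shares called in either direction were 7.69%, 2.38%, 10.5% and 7.69%, where 11.3% of all genes were. The V-ATPase calls were all lower, where 4.47% of all genes were called lower. These shares rest on few genes and were not tested against the share of all genes. Without DMSO_FRC library 1, 555 genes of the table were called higher and 326 lower in place of 1499 and 977, and of these 4 lists only atp6v0cb and ulk2 were called, both lower. Without library 2 of every FRC the table gave 2918 and 2283 and the lists gave 3 higher and 3 lower regulators, 2 and 3 lysosomal genes, 0 and 4 V-ATPase subunits and 3 and 6 autophagy genes.

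In single treatments more of these genes passed, and some lists had a larger share called than all genes. TDBPP had 9 of 42 lysosomal genes called higher and 1 lower (23.8%, median 0.30), and 4 of 26 regulators higher and 5 lower (34.6%), beside 25.5% of all genes. With TiBP 28.2% of the autophagy genes (6 higher and 5 lower) and 26.3% of the V-ATPase subunits (3 and 2) were called beside 18.9% of all genes, and 14.3% of the lysosomal genes (4 and 2). V-ATPase subunits were at 21.1% in TBBPA (2 and 2) beside 8.18% of all genes, and autophagy genes at 17.9% in TBBPA-DBPE (3 and 4) beside 11.8%. Over 33 treatments the lysosomal genes gave 73 calls higher (5.27% of 1386 tests) and 10 lower (0.72%), where 2.55% of all gene-by-treatment tests were called higher and 2.32% lower. DBalP, which is no FRC, gave 24 of the 73, with 57.1% of the lysosomal genes higher (median 0.51). Of all genes, 15.5% were called higher there and 31.8% in either direction. The other lists did not rise in DBalP as the lysosomal genes did. V-ATPase subunits gave 3 higher and 6 lower (47.4%), regulators 1 and 6 (26.9%) and autophagy genes 5 and 5 (25.6%). In DBalP the log2 fold change was 0.28 for tfe3a, 0.16 for tfe3b and 0.42 for tfeb (tfeb adjusted p = 0.093 in limma). 7,12-B[a]AQ gave 7 of the 73 and 2 lower (21.4% beside 8.72% of all genes). BEZO gave 7 and 0 (16.7% beside 3.94%) and 9,10-PQ 2 and 0 (4.76% beside 7.06%). In these treatments tfe3a was higher than its controls without overlap. tfe3a was also higher without overlap in every FRC. Of the FRCs, IPP gave 3 lysosomal genes higher and 0 lower. TBBPA-DBPE gave 0 and 3 (median -0.17), TCEP 0 and 1, and BDE-47, TBPH, TPP and TCPP 0 and 0. A link to tfe3a was not tested. Autophagy genes in 7,12-B[a]AQ gave 8 and 1 (23.1%). TBBPA and Retene gave 5 lysosomal genes higher and 0 lower each (11.9%, beside 8.18% and 1.11%). psap, the precursor of the saposins that help break down sphingolipids, was called higher in 6 treatments and lower in 1, ctsc and tpp1 higher in 6 each, and ctsz higher in 5 and lower in 1. Of these, psap (-0.11), ctsz (-0.05), tpp1 (0.04) and ctsc (0.25) did not pass in the mean of the FRCs. sqstm1, an autophagy receptor, was called higher in 9 treatments, with a median log2 fold change of 0.56 over the AHR2 Activators and -0.21 over the FRCs. Its value in the mean of the 10 FRCs had the opposite sign, 0.35 (SE 0.17, adjusted p = 0.19 in limma). atp6v0cb was called lower in 6 treatments, atp6v0a1a higher in 4, atp6ap1b higher in 3 and atp6ap1a lower in 3, gabarapa higher in 5, rraga higher in 4, ppp3cb lower in 5 and ppp3ca lower in 3.

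**Figure D5:**
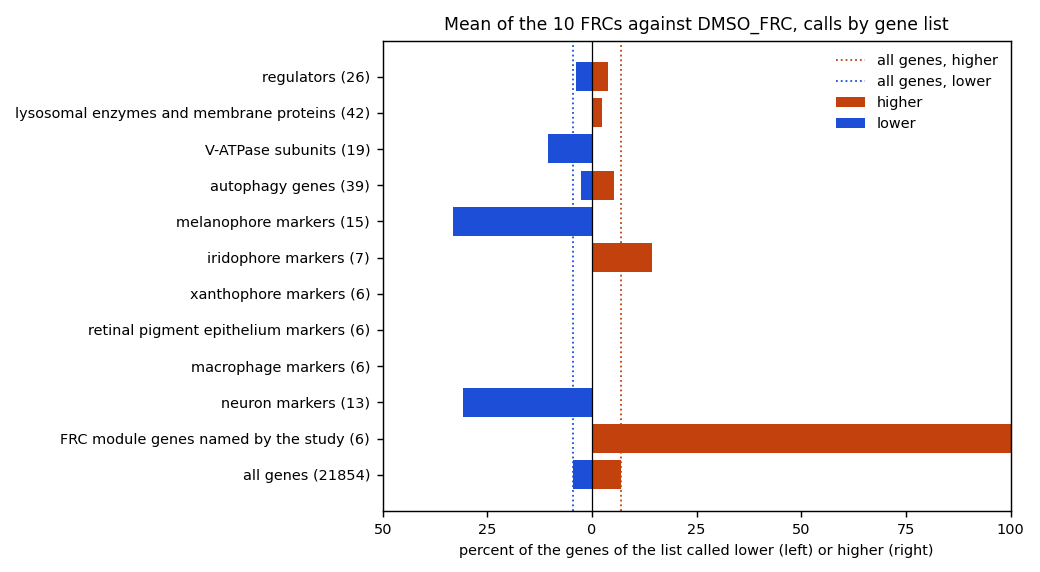
Percent of the genes of each list (number of genes in the table in brackets) called lower, to the left, or higher, to the right, in the mean of the 10 FRCs against DMSO_FRC; the dotted lines give the shares over all genes, 6.86% higher and 4.47% lower. Melanophore and neuron markers have 5 of 15 and 4 of 13 genes called lower. All 6 FRC module genes followed here, which had been chosen on these samples, are called higher.

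Markers of the pigment cells in which mitfa and tfec act were followed beside them. Of 15 melanophore markers, 5 were called lower and none higher in the mean of the FRCs (median -0.26), where 4.47% of all genes were called lower. They were pmelb and pmela, which form the melanosome matrix (-0.57 each), dct (-0.54) and tyrp1b (-0.42), both of melanin synthesis, and gpr143, a melanosome receptor (-0.56). tyrp1a (-0.63, adjusted p = 0.051 in limma) and oca2 (-0.34) did not pass. slc45a2 (0.29), kita (0.29) and mc1r (0.22) went the other way and did not pass either. The count of 5 was 1 (pmelb) without DMSO_FRC library 1, 4 without control library 2 and 2 without control library 3 or 4. It was 3 without library 1 of every FRC, 8 without library 2 and 2 without library 3 or 4. pmelb was lower in each of these settings, and kita was called higher without library 2 of every FRC. The summed level of the 15 markers was 14533 to 19858 in DMSO_FRC, 9573 to 11679 in TBBPA-DBPE and 15456 to 23374 in TBBPA. In TBBPA-DBPE, where mitfa was called lower, 6 of 15 markers were called lower beside 5.1% of all genes. In TBBPA 1 marker was called lower beside 4.65% of all genes. In TiBP the summed level was 10247 to 13631, with 5 markers lower (beside 8% of all genes) and 1 higher. The largest count was in 7,12-B[a]AQ, with 7 markers lower beside 4.72% of all genes and a mitfa log2 fold change of 0.06. TDBPP had 5 lower (11.8% of all genes, mitfa -0.29), TCEP 4 (4.61%, mitfa -0.49) and 9,10-PQ 4 (3.91%, mitfa -0.39). B[a]P_10 had 3 lower (0.407% of all genes, mitfa -0.18). IPP had 2 lower and 1 higher (5.97% of all genes lower, mitfa -0.39). DBalP had 4 lower and 1 higher (16.2% of all genes lower, mitfa -0.18). With BkF, where mitfa was called higher, none of the 15 was called and the sum of 10328 to 13188 overlapped the 10461 to 12816 of DMSO_A. With TCDD the sum was 14131 to 16753 against 13605 to 15417. No melanophore marker was at 0 in any library. The part of melanophore number in the mitfa values was not tested.

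Of 7 iridophore markers, ednrba, an endothelin receptor, was called higher (0.50) and none lower in the mean of the FRCs, a call that was lost without control library 1, 2 or 3 and without library 3 or 4 of every FRC. gpnmb was called lower in 8 of the 33 treatments, and pnp4a, of purine synthesis, and ltk, a receptor kinase of the lineage, in 3 each. The 7 iridophore markers together gave 3 calls higher and 17 lower (7.36% of tests, where 2.32% of all tests were lower), and 4 of the 17 were in TDBPP, where the list's median was -0.68 and 11.8% of all genes were called lower. None of 6 xanthophore markers, 6 retinal pigment epithelium markers or 6 macrophage markers was called by limma in the mean of the FRCs. All 6 pigment epithelium markers, of another pigmented cell type, had negative values there, from -0.16 for bhlhe40 to -0.45 for rlbp1b, with a median of -0.36 beside -0.26 for the melanophore markers and 0.01 for all genes, and 3 of the 6 were called lower without library 2 of every FRC. Over single treatments aox5 (xanthophores) was higher in 5, csf1ra and xdh in 1 each, and pax7a was lower in 1. In the pigment epithelium rpe65a was lower in 5 and higher in 1, rlbp1b lower in 5, otx2b lower in 4 and bhlhe40 higher in 5 and lower in 2. In macrophages marco was higher in 3, ptprc and spi1b higher in 1 and lcp1 lower in 1. Over the 33 treatments these lists gave 7 calls higher and 3 lower in xanthophores (3.54% and 1.52% of tests), 6 and 20 in the pigment epithelium (3.03% and 10.1%) and 6 and 1 in macrophages (3.03% and 0.51%).

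Of 13 neuron markers, 4 were called lower and none higher in the mean of the FRCs, where 4.47% of all genes were called lower. They were stxbp1a and stmn2a (-0.50 each), elavl4 (-0.35) and syt1a (-0.25). snap25b, at -0.25, did not pass but was called lower in 9 single treatments. The count of 4 was 1 without control library 2 or 4 and 2 without control library 1 or 3. It was 2 to 6 without a library number of the FRCs, and stxbp1a was lower in each of these settings. Over the whole table the genes called lower ranged from 326 (without control library 1) to 2283 (without library 2 of every FRC), against 977 with all libraries. In TDBPP, high for both tfe3a and tfe3b, 9 of 13 were lower (median -0.81) beside 11.8% of all genes called lower, and the summed level was 21124 to 34126 against 52782 to 56787 in DMSO_FRC. In TiBP, highest for tfe3a, it was 45117 to 49485, and in TBBPA-DBPE, highest for tfe3b, 50623 to 54967, which overlapped the controls. In DBalP 12 of 13 were lower (median -0.71) beside 16.2% of all genes called lower. The summed level was 30771 to 33895 against 43580 to 69114 in DMSO_PE50_AK. The log2 fold changes of tfe3a, tfe3b and tfeb in DBalP were 0.28, 0.16 and 0.42. No neuron marker was at 0 in any library. The part of these cells in the levels of tfe3a, tfe3b or tfeb was not tested.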

How the data were processed

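RNA was measured by sequencing of polyA-selected libraries. The submitters' processing notes name STAR, HTSeq, DESeq2 and GRCz11, with versions not given in the sources used here. The deposited values are log2 values, which the authors made by a variance-stabilizing transformation of counts (3715180 values in 170 entries). The transformation was inverted here, and all values gave whole reads within 0.05 after division by size factors of 0.0293 to 2.45. Entries with the same lane and index were merged into 144 libraries as summed reads over summed size factors, since such entries differed by sampling noise only (variance ratio 0.990 to 1.08 in 31 pairs). Groups follow the labels, and controls and classes follow the study's own sample list. Single-gene counting error is that of the reads given, and reads are not independent molecules.

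Main tests used limma 3.58.1 (trend, R 4.3.3) on log2(normalized read count + 1), 1 fit per study, with Benjamini-Hochberg adjustment over 21854 genes per treatment, called under 0.05. Because the files hold log2 values, no count test was the main test. In a simulated TDBPP comparison of 21854 genes, 200 of 200 genes changed by a log2 fold of 2 were found, with 14 false calls. The simulation gave every gene the same dispersion and changed only genes above a set control level. It therefore does not give the power for the smaller differences of the paralogs. Alternatives were other pseudocounts (0.5 and 5), a minimum mean of 10, the deposited log2 values, voom on the recovered reads, upper-quartile rescaling, a replicate block, lane as a term, 1 fit over all samples, entries as replicates or unweighted, DMSO_A and DMSO_B pooled, and leaving out each library number. Correlations used values centred on each group. The members and lists were chosen with earlier results of these data known. Named were the members, the 4 genes of each list called in most treatments and the 5 genes most like each member. All genes of the list taken from the study's Module 2 were also named. Chosen after their values were seen were the other list genes called in the mean of the FRCs and the most opposed genes. Of the list genes, those absent from the table were not analysed here. Same-numbered libraries did not deviate together (Pearson's r from -0.39 to 0.13 in 97 pairs), so they were not treated as pairs. Figures used Python 3.11.15 and matplotlib 3.10.9.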

Additional observations from a re-analysis of the deposited data

Results flagged for a closer look

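In 5 of 140 combinations of a gene and a group of 4 libraries, a single library lay apart from the others by more than Dixon's 95% limit, where chance alone marks about 1 in 20. For tfe3a these were Carbazole library 1, at 337 normalized reads where the others held 142 to 146, and 4h-CPdefP library 1, at 72.8 where the others held 157 to 165. Both libraries moved the same way in srgap3 (794 and 262 reads). In mxd1 (627 and 445 reads) the shifts were smaller than in tfe3a. The ratio of tfe3a to mxd1 was 0.54 in Carbazole library 1 (group median 0.26) and 0.16 in 4h-CPdefP library 1 (group median 0.26). For tfe3b it was TDBPP library 4, at 85.7 where the others held 149 to 160. For tfec it was TiBP library 2, at 68.8 where the others held 50.9 to 53.3, and DMSO_TCDD library 1, at 43.9 where the others held 61.0 to 62.6.

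The response of mitfa differed between TBBPA-DBPE and TBBPA by a test of the difference itself (log2 difference -1.13, adjusted p = 0.0018 in limma).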

How the results depend on the processing

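The median log2 fold change of tfe3a over the 10 FRCs stayed between 2.75 and 3.42 under 20 alternatives, among them an unweighted mean of entries, which was added after the data were seen. With 1 fit over all samples, 22 of 132 paralog tests, 3 of 28 pair tests and 53 list genes in the mean of the FRCs were called, against 11, 1 and 24. With voom 7 of 132 were called and the mean FRC difference of tfeb was 0.68 (adjusted p 0.073). Upper-quartile rescaling gave 0.65 for tfeb (adjusted p 0.057). Leaving out 1 library number at a time gave 5 to 15 paralog calls, 0 to 1 pair calls, 11 to 52 list genes, and mean FRC differences of 1.18 to 1.56 for tfe3b, 0.48 to 0.79 for tfeb, -0.45 to -0.12 for tfec and -0.41 to -0.18 for mitfa. The lowest list count, 11, came without library 1 of the controls, and the highest, 52, without library 2 of the treatments; the count was 14 without control library 3 or 4 and 15 without treatment library 4. DMSO_B minus DMSO_A ranged from -0.21 to 0.03 for tfe3b and turned positive without control library 1 (0.029) or 4 (0.026), and was not called in any case. With the replicate block 10 of 132 paralog tests were called, the mean FRC difference was 1.39 for tfe3b and 0.67 for tfeb, and tfe3b in IPP lost its call (adjusted p 0.053). The cause was not tested. In the block the numbers are names only, since 4 of 97 pairs had r over 0.1. DMSO_FRC libraries with 16 to 61 tfe3a reads limit the precision of the fold changes.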
